A study of Mus musculus with 14 samples.

Results

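The 7 genes of sterol sensing, Srebf1, Srebf2, Scap, Insig1, Insig2, Mbtps1 and Stard4, were followed in the transcriptomes of mouse forelimb buds with and without mesenchymal Smad4. They were found by their symbols and chosen for what they are known to do, with earlier results of these data known, and all 7 of the 23284 symbols counted were found and tested. None of them takes up lipoproteins, so uptake is covered here only by a list of other genes. Polyadenylated RNA was sequenced from 14 NMRI embryos, the 2 forelimb buds of 1 embryo forming 1 replicate. The mutants (Smad4Δ/Δc, PrxCreT/+) carried a constitutive null allele and an allele deleted by Cre under the Prrx1 promoter. That promoter is active in limb bud mesenchyme, so that ectoderm, vessels and blood were not targeted by Cre. Because the null allele is constitutive, those tissues of the mutants were heterozygous for Smad4 and not wild type. The controls, called wild type, were Smad4+/+ and carried the same PrxCreT/+ transgene. There were 3 wild-type and 4 mutant embryos at E10.0 (30 somites) and again 3 and 4 at E10.5 (35 somites).

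SREBP-1 and SREBP-2, the products of Srebf1 and Srebf2, are transcription factors made as membrane proteins of the endoplasmic reticulum. When sterols are scarce the escort protein SCAP carries them in COPII vesicles to the Golgi, where the site-1 protease encoded by Mbtps1 and a second protease release the active factor. When sterols are plentiful, INSIG1 or INSIG2 holds SCAP back. Insig1, Stard4, which encodes a soluble sterol carrier of the START family, most cholesterol enzymes and Srebf2 itself are known SREBP targets, so their transcripts are read in many tissues as a gauge of SREBP activity. In limb buds cholesterol also matters because Hedgehog ligands carry it and because Hedgehog signal transduction depends on it.

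In the mm9 build of the counts, Srebf1 lies at chr11:60012591-60036083, Srebf2 at chr15:81977696-82035806, Scap at chr9:110235792-110287450, Insig1 at chr5:28397952-28405201, Insig2 at chr1:123200930-123229166, Mbtps1 at chr8:122032056-122082661 and Stard4 on chromosome 18. The counts cover the exons of each gene.

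Between 34066930 and 61691258 reads per library were counted on genes, and the 7 members took 0.0564% to 0.0850% of them. Smad4 stood at 152 to 169 CPM (reads per 1000000 counted, scaled by TMM normalization) in the 6 wild-type libraries and at 32.9 to 46.0 CPM in the 8 mutant libraries, as labelled. Markers of limb mesenchyme summed to 1160 to 1721 CPM in every library, with none at 0, but 4 of the 5 were called lower in mutants at E10.0 (edgeR's exact test, with the limits used for the members): Prrx2 (log2 fold change -1.01), Twist1 (-0.34), Tbx5 (-0.31) and Prrx1 (-0.29). At E10.5, Prrx2 (-0.83), Twist1 (-0.36) and Prrx1 (-0.32) were called lower and Pdgfra (0.32) higher. Of the other marker lists, Myf5 of muscle precursors was called higher in mutants at E10.0 (1.26) and Tbx4 of the hindlimb at E10.5 (0.79). Also called were 2 of 4 macrophage markers at E10.0, Cx3cr1 (1.34) among them, and 2 of 3 mesothelial markers at each stage. The summed level of 3 mesothelial markers was higher in mutants than in wild type at E10.0 (7.94 to 18.3 against 1.08 to 2.64 CPM) and lower at E10.5 (0.586 to 2.38 against 2.91 to 5.49 CPM), and 4 macrophage markers stood at 5.19 to 6.66 against 1.80 to 4.24 CPM at E10.0. No liver marker was called, but Afp stood at 7.10 CPM in mutant replicate 2 of E10.5 and at 0.398 CPM or less in every other library. The part of these cell types in the results was not tested. In bulk tissue, fewer cells of a type and less RNA per cell cannot be told apart.

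The mutant replicates numbered 4 and 5 stood apart from all other libraries at both stages. Their 45S ribosomal RNA precursor took 1.72% to 8.05% of the reads, against 0.151% to 0.478% in the other 10 libraries. Within each stage these 2 mutants had less Insig1 and Stard4 and more Srebf1 than the other 2 mutants, with no overlap. At E10.0 their mean was 0.31 lower for Insig1, 0.35 lower for Stard4, 0.47 higher for Srebf1 and 0.28 higher for Scap on the log2 scale. At E10.5 the corresponding differences were 0.30 lower, 0.35 lower, 0.22 higher and 0.23 higher. There are no wild-type replicates 4 and 5, so this difference and the genotype cannot be told apart with all libraries. The result of each member is therefore also given with replicates 1 to 3 only, at least where its call changes.

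**Figure D1:**
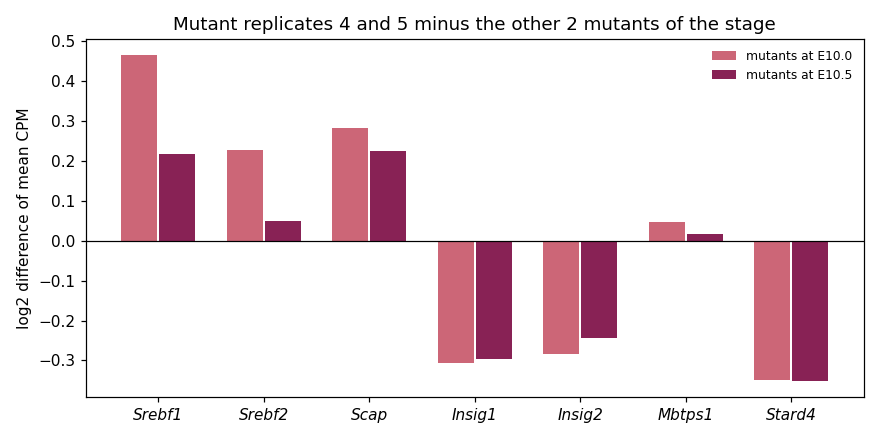
Log2 difference of the mean CPM between mutant replicates 4 and 5 and the other 2 mutants of the same stage (vertical axis) for the 7 members (horizontal axis), 1 bar per stage. Insig1, Insig2 and Stard4 lie below 0 at both stages, Srebf1 and Scap lie above 0, and Mbtps1 stays within 0.05 of it.

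Insig1 had the largest change of the members. At E10.0 its level was 137, 151 and 140 CPM in the wild-type embryos and 92.5, 90.2, 74.2 and 73.4 CPM in the mutants. At E10.5 it was 86.5, 99.7 and 92.0 CPM in wild type and 80.1, 96.6, 70.6 and 73.2 CPM in mutants. The 3 wild-type embryos at E10.0 were thus the only ones of the 14 above 100 CPM, while the other 3 groups overlapped each other. Its paralogue Insig2 was the lowest of the members and ranged from 14.7 to 22.2 CPM over all embryos, with means of 18.4 and 18.6 CPM in wild type and mutants at E10.0, then of 18.9 and 18.5 CPM.

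Srebf2 followed a course like that of Insig1, with a smaller range. It stood at 241, 227 and 248 CPM in wild type and at 148, 170, 183 and 189 CPM in mutants at E10.0, then at 202, 164 and 161 CPM in wild type and at 146, 169, 169 and 157 CPM in mutants at E10.5. No other embryo reached the 227 CPM of the lowest wild-type embryo at E10.0. Srebf1 stood at 54.4, 61.8 and 61.3 CPM in wild type and at 33.3, 39.1, 52.9 and 47.0 CPM in mutants at E10.0. At E10.5 its levels were 52.8, 40.8 and 43.6 CPM in wild type and 31.6, 38.4, 42.9 and 38.7 CPM in mutants. At E10.0 the groups were only just apart, with 52.9 CPM in the highest mutant, replicate 4, and 54.4 CPM in the lowest wild-type embryo. Counts are per symbol, and transcripts of Srebf1 from its different start sites were therefore added together.

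Scap, the escort, stood at 54.4 to 58.4 CPM in wild type and at 42.9 to 59.8 CPM in mutants at E10.0, and at 44.8 to 50.2 and 38.3 to 52.4 CPM at E10.5. Mbtps1, the protease, was the steadiest member, with 279 to 287 CPM in wild type and 270 to 285 CPM in mutants at E10.0, then 263 to 277 and 251 to 281 CPM. The 2 genotypes overlapped at both stages for both genes.

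Stard4, the sterol carrier, stood at 53.0, 54.5 and 63.6 CPM in wild type and at 48.1, 41.7, 31.4 and 39.2 CPM in mutants at E10.0. At E10.5 it was 45.3, 41.7 and 43.4 CPM in wild type and 43.0, 42.3, 33.0 and 33.8 CPM in mutants. As for Insig1, the wild-type embryos at E10.0 lay above all others, and the 4 lowest values were those of mutant replicates 4 and 5.

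**Figure D2:**
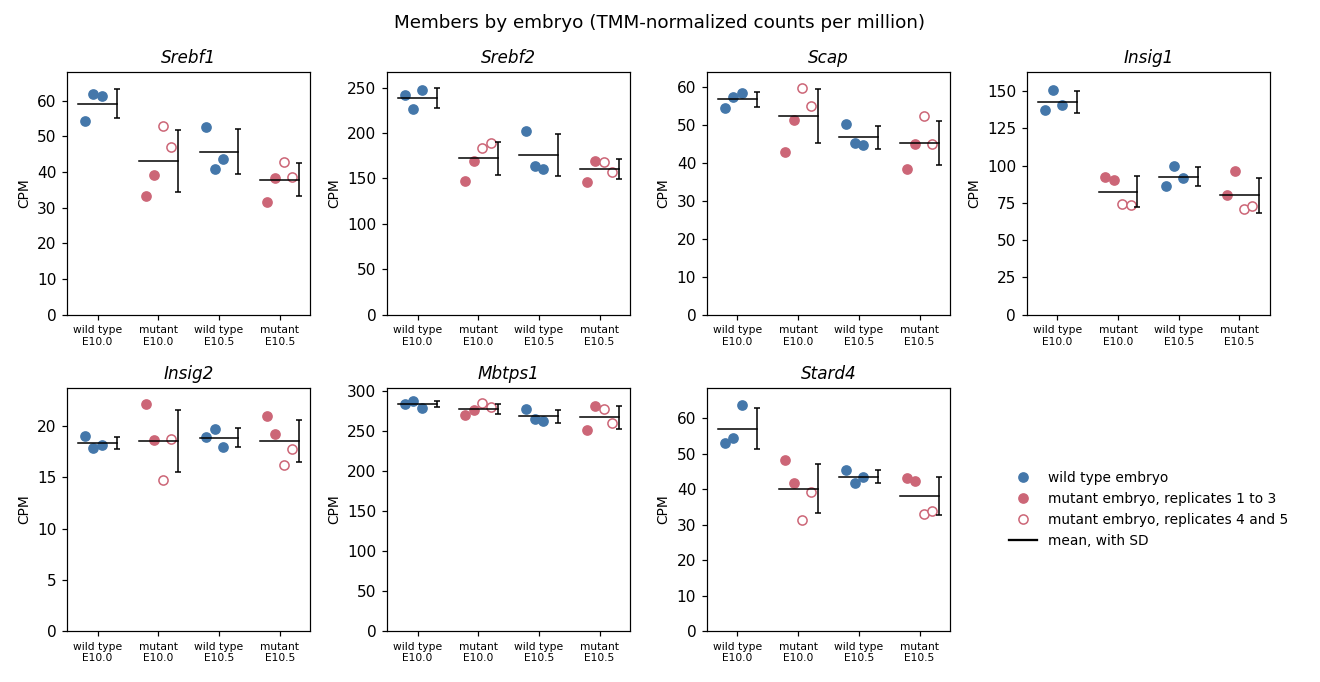
CPM of each member (vertical axes, from 0) by group (horizontal axes), with 1 point per embryo, the group mean as a line and its SD as a bar, and open points for mutant replicates 4 and 5. In Insig1, Srebf2, Srebf1 and Stard4 the wild-type embryos at E10.0 lie above every mutant of that stage, and in Insig2 and Mbtps1 the genotypes overlap.

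Levels of different genes were compared per kb of exon. In wild type at E10.0 the order was Insig1 (53.9±2.75 CPM per kb, mean±SD, n=3), Srebf2 (47.8±2.15), Mbtps1 (41.7±0.58), Scap (10.9±0.39), Srebf1 (10.5±0.73), Stard4 (10.2±1.03) and Insig2 (5.29±0.18). Insig1, Srebf2 and Mbtps1 did not overlap, Scap, Srebf1 and Stard4 overlapped, and Insig2 lay below them all. With the longest transcript as the length, Stard4 (10.4 to 12.5 CPM per kb) lay below Srebf1 (12.7 to 14.4) and Scap (12.9 to 13.8), which overlapped. In the other 3 groups Mbtps1 came first (40.8±0.94 in mutants at E10.0, 39.4±1.14 in wild type and 39.3±2.13 in mutants at E10.5), followed by Srebf2 (34.5±3.65, 35.2±4.58 and 32.1±2.21) and Insig1 (31.2±3.84, 35.0±2.50 and 30.3±4.42), the last 2 overlapping in each group. Insig1 therefore went from the highest to the third level per kb between wild type and mutants at E10.0, with no change of the order of these 3 genes when the longest transcript was used as the length. Mbtps1 and Srebf2 overlapped in wild type at E10.5, at 38.6 to 40.7 and 32.2 to 40.5 CPM per kb. Srebf2 was above Srebf1 in every embryo.

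The question of the first comparison is which transcripts differ when SMAD4 is missing from the mesenchyme and the other tissues are heterozygous for Smad4. At E10.0, Insig1, Stard4, Srebf2 and Srebf1 fell in the mutants, and Scap, Mbtps1 and Insig2 did not pass the test. A gene was called when edgeR's exact test, adjusted over 12393 genes by the method of Benjamini and Hochberg, gave a P of 0.1 or less and the fold change reached 1.2. The 4 of 7 members called lower stand beside 3.28% of all genes tested, and the members were not chosen independently of these data. The same 4 members had groups that did not overlap, against 9.78% of all genes. Insig1 was 1.73-fold lower (log2 fold change -0.79±0.10 SE, adjusted P=4.81e-10), Stard4 1.42-fold lower (-0.51±0.15, adjusted P=0.00464), Srebf2 1.39-fold lower (-0.47±0.09, adjusted P=0.000406) and Srebf1 1.38-fold lower (-0.46±0.16, adjusted P=0.0286). All 4 mutants lay below all 3 wild-type embryos for each of them. Insig1 and Srebf2 kept their calls whichever embryo was left out. Srebf1 lost its call without wild-type replicate 2 (adjusted P=0.116), wild-type replicate 3 (0.206) or mutant replicate 1 (0.116) of this stage, and Stard4 lost it without wild-type replicate 3 (0.133).

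Scap (-0.12±0.10, adjusted P=0.642), Mbtps1 (-0.03±0.02, adjusted P=0.893) and Insig2 (0.02±0.12, adjusted P=0.969) had overlapping genotypes at E10.0. With replicates 1 to 3 only, Scap was called lower as well by the exact test (log2 fold change -0.26, adjusted P=0.0784). That fit called 1367 genes lower, against 406 in the fit with all libraries. The changes in it were -0.71 for Srebf1, -0.59 for Srebf2, -0.64 for Insig1 and -0.34 for Stard4, each past the test. Leaving out the libraries rich in ribosomal RNA precursor thus gave larger changes of the SREBP genes and Scap and smaller ones of Insig1 and Stard4. The median log2 fold change was -0.46 over the members and -0.02 over all genes.

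At E10.5 none of the 7 members was called between the genotypes, and 3.73% of all genes were called in either direction. None had an unadjusted P under 0.05 by edgeR's exact test, the lowest being 0.0501 for Srebf1 and 0.0580 for Insig1. The log2 fold changes were -0.27±0.14 for Srebf1 (adjusted P=0.488), -0.21±0.12 for Insig1 (adjusted P=0.516), -0.19±0.11 for Stard4 and -0.13±0.12 for Srebf2, and those of Scap, Insig2 and Mbtps1 were -0.05±0.10, -0.02±0.08 and -0.00±0.05. The quasi-likelihood test called none either, and neither did DESeq2. With replicates 1 to 3 only, Srebf1 was called (-0.38, adjusted P=0.0717 by the exact test). In that fit Insig1 (-0.07) and Stard4 (-0.03) differed less than with all libraries. Srebf2 (-0.16) and Scap (-0.17) differed more, and none of them was called. Without mutant replicate 2 of this stage, Insig1 was called (-0.31, adjusted P=0.0966 by the exact test). The median over the members was -0.13, against -0.01 over all genes.

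The second pair of comparisons asks how the transcripts change as the bud grows out from E10.0 to E10.5. They use the same embryos as the comparisons of genotype, and their values are therefore not independent of those above. In wild type, Insig1, Srebf2 and Stard4 fell with stage, which is 3 of 7 members against 4.74% of all genes called lower. Insig1 was 1.54-fold lower at E10.5 (-0.62±0.07, adjusted P=1.44e-05), Srebf2 1.36-fold lower (-0.44±0.11, adjusted P=0.00198) and Stard4 1.31-fold lower (-0.39±0.09, adjusted P=0.0564). The stages did not overlap in 6 of 7 members, all lower at E10.5, against 20.4% of all genes. The other 3 of those 6 did not pass the test, at -0.37±0.12 for Srebf1 (adjusted P=0.108), -0.28±0.06 for Scap (adjusted P=0.152) and -0.08±0.03 for Mbtps1 (adjusted P=0.630). Insig2 differed by 0.04±0.05 (adjusted P=0.916).

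The calls of Srebf1, Scap and Stard4 in this comparison differed between fits. When only replicates 1 to 3 entered the fit, or only the groups compared, Srebf1 and Scap were called too. Those fits called 954 and 1036 genes lower, against 588 in the fit with all libraries. With replicates 1 to 3 the adjusted P was 0.0133 for Srebf1 and 0.0346 for Scap by the exact test, at almost the same fold changes. Stard4 lost its call by the quasi-likelihood test (adjusted P=0.107) and without replicate 2 or 3 of wild type at either stage (adjusted P=0.142 to 0.283). Srebf1 was called without replicate 1 of any group, wild type or mutant, or without mutant replicate 4 of E10.0 (adjusted P=0.0421 to 0.0972), and Scap without mutant replicate 1 of E10.0 (0.0859).

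In mutants, none of the 7 members was called between the stages, although 19.2% of all genes were. Insig1 differed by -0.04±0.13, Srebf2 by -0.10±0.09, Srebf1 by -0.18±0.17, Stard4 by -0.08±0.16, Mbtps1 by -0.06±0.04 and Insig2 by -0.00±0.14. Scap had the largest value (-0.21±0.13, adjusted P=0.164) and was the only member with an unadjusted P under 0.05 (P=0.0474 by the exact test). DESeq2 and the quasi-likelihood test called no member either. Mutants of the 2 stages that share a replicate number deviated together. With the number as a block in a quasi-likelihood fit to the 8 mutants, Scap (-0.21, adjusted P=0.0501) and Srebf1 (-0.21, adjusted P=0.0693) passed the limit on adjusted P but not the fold change of 1.2. Leaving out mutant replicate 1 of E10.0, Scap (-0.29, adjusted P=0.0228) and Srebf1 (-0.29, adjusted P=0.0718) were called by the exact test, as was Scap without mutant replicate 4 of E10.5 (-0.29, adjusted P=0.0480). The medians were -0.08 over the members and -0.01 over all genes.

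Whether the genotype difference itself changed between the stages was tested as the interaction of stage and genotype with edgeR's quasi-likelihood test. No member was called, against 0.186% of all genes, and 2 members had an unadjusted P under 0.05. For Insig1, edgeR's quasi-likelihood test put the log2 fold change of mutants 0.58±0.15 higher at E10.5 than at E10.0 (adjusted P=0.333, unadjusted 0.00189). For Srebf2 it was 0.34±0.14 higher (adjusted P=0.780, unadjusted 0.0227). Stard4 (0.32±0.18), Srebf1 (0.19±0.21), Scap (0.07±0.15), Mbtps1 (0.02±0.05) and Insig2 (-0.04±0.14) followed. DESeq2 called Insig1 (0.57, adjusted P=0.0718). A difference of the genotype effect between the stages was therefore called for Insig1 by that tool and not by the quasi-likelihood test without a replicate block, and for no other member by either.

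**Figure D3:**
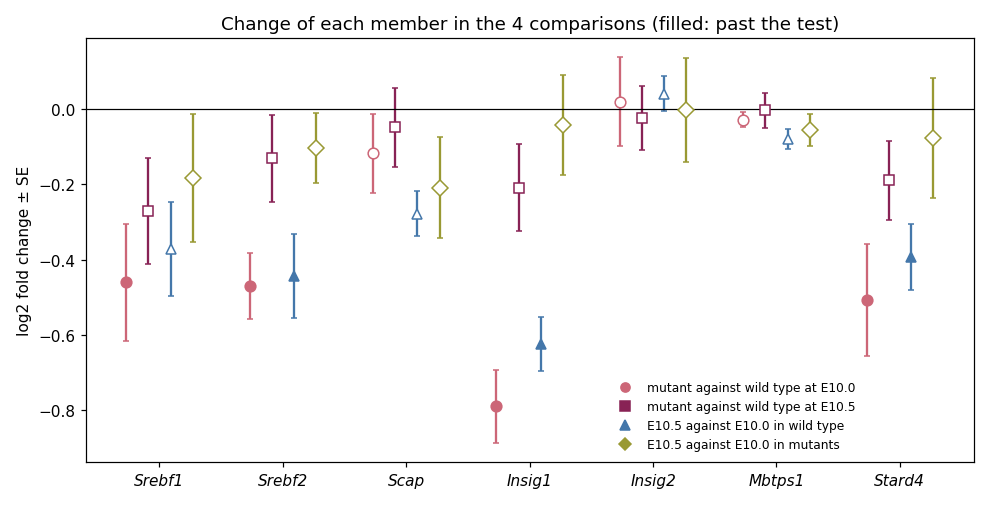
Log2 fold change (vertical axis) of the 7 members (horizontal axis) in the 4 comparisons, with the SE as a bar and filled symbols for changes past the test. Insig1, Srebf2 and Stard4 have filled symbols both for mutants at E10.0 and for wild type at E10.5 against E10.0, Srebf1 for the former only, and no symbol is filled for mutants at E10.5 or for mutants between the stages.

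Ratios of 2 members within 1 library do not depend on the depth or scaling of that library. There were 7.19, 8.46 and 7.73 Insig1 reads per Insig2 read in wild type at E10.0 and 4.17, 4.85, 5.03 and 3.92 in mutants. At E10.5 the ratio was 4.58 to 5.11 in wild type and 3.82 to 5.03 in mutants. Its means (±SD) were 7.79±0.63 and 4.49±0.53 at the earlier stage and 4.91±0.29 and 4.33±0.51 at the later one, so that only wild type at E10.0 stood apart. Mutant replicates 4 and 5 did not stand apart in this ratio at either stage.

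Insig1 reads per Scap read, the retaining protein against the escort, were 2.41 to 2.64 in wild type and 1.24 to 2.15 in mutants at E10.0, and 1.72 to 2.20 and 1.35 to 2.15 at E10.5. Here mutant replicates 4 and 5 were the lowest at both stages. Srebf1 reads per Srebf2 read were nearly the same in all 4 groups, with means of 0.248±0.023 and 0.248±0.029 at E10.0, then of 0.260±0.011 and 0.236±0.017. The ratios are descriptions and were not tested.

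**Figure D4:**
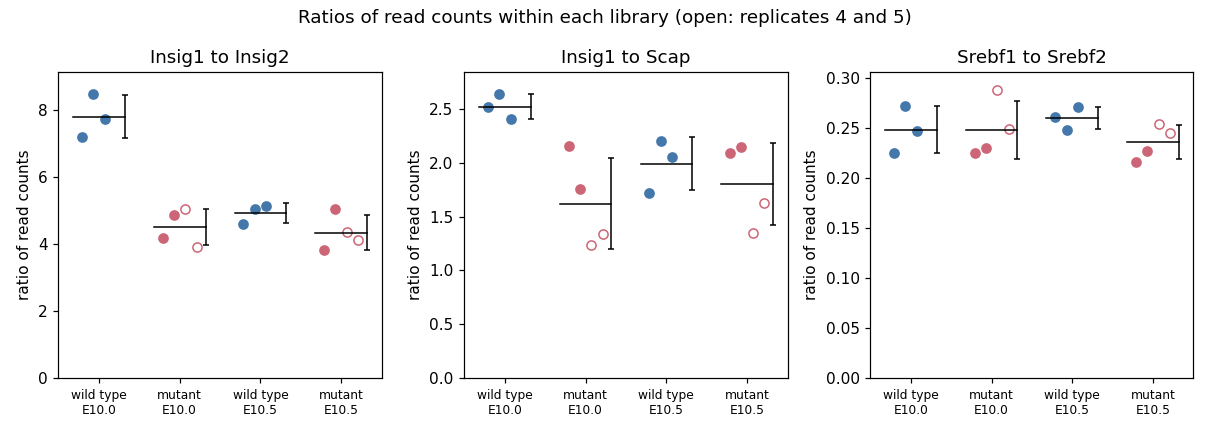
Ratio of read counts (vertical axes, from 0) of Insig1 to Insig2, Insig1 to Scap and Srebf1 to Srebf2 in each embryo, by group (horizontal axes), with the mean, the SD and open points for mutant replicates 4 and 5. The Insig1 to Insig2 ratio is 7.19 or more in wild type at E10.0 and 5.11 or less in the other 3 groups, while the Srebf1 to Srebf2 ratio overlaps between all groups.

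Sequences before the start sites of the members were searched for letters known from SREBP target promoters. RefSeq windows of 250 bases upstream (build GRCm38.p6, which differs from the mm9 build of the counts) were at hand for 6 members, 11 windows in all. Both strands were searched for the sterol regulatory element core TCACNCCA, the E-box CACGTG that SREBPs can also bind, the CCAAT box of their partner NF-Y (CCAAT), the GC box GGGCGG and the GC-rich SMAD element GGCGCC. No 2 matches in these windows shared a base. The 4 windows below are shown because Srebf2, Insig1 and Srebf1 fell in mutants at E10.0 and Mbtps1 is the steady member for contrast. Capitals mark the sterol regulatory element core, the E-box and the CCAAT box.
Srebf2, chr15:82147019-82147268, plus strand: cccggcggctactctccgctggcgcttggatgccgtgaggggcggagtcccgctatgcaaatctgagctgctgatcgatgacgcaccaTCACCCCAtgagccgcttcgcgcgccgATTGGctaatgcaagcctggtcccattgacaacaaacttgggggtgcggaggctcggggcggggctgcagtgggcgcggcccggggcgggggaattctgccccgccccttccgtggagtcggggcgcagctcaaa
Insig1, chr5:28071162-28071411, plus strand: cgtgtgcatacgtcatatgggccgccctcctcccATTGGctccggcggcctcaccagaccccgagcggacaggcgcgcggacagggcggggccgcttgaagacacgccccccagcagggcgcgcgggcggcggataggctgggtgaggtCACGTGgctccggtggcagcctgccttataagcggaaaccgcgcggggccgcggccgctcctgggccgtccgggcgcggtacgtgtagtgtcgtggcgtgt
Srebf1, the third of 3 windows, chr11:60210472-60210721, minus strand: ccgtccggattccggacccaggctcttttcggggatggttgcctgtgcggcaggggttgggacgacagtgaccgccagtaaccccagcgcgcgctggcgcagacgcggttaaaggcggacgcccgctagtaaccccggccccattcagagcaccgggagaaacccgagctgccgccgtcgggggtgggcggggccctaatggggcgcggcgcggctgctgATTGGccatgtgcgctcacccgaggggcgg
Mbtps1, chr8:119558762-119559011, minus strand: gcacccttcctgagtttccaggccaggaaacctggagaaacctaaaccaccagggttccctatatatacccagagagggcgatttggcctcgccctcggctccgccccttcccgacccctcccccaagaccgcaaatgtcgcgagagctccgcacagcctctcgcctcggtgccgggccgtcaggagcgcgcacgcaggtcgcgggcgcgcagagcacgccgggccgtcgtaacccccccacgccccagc

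Srebf2 was the only member with the sterol regulatory element core in its window, as TCACCCCA with its first base at -162 from the start site, followed by a CCAAT box on the other strand at -135. That core was found in 3.67% of 32851 windows of the same length. Insig1 held the E-box at -101 and a CCAAT box on the other strand at -216. The E-box was found in 6.02% of all windows, and among the members also in 1 of 2 Scap windows. CCAAT was present in 33.8% of all windows and, besides Insig1 and Srebf2, in 2 of 3 Srebf1 windows and 1 of 3 Insig2 windows. The Mbtps1 window held none of the 3 and a single GC box, a match seen in 32.7% of all windows. The SMAD element, in 9.59% of all windows, was in no member's window. A match is a description of letters and not of binding.

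Members that shared a course over the 14 embryos were described by Pearson's r of log2(CPM + 1), in which shared groups and libraries enter. Among members, r was highest for Srebf1 with Srebf2 (0.92), Insig1 with Stard4 (0.89) and Srebf1 with Scap (0.87), and lowest for Scap with Insig2 (-0.67). Of all genes tested, Insig1 was most like Cyp51 (0.98), Idi1 (0.97) and Sc4mol (0.96), and Stard4 most like Cyp51 (0.92), Idi1 (0.90) and Acat2 (0.90), all enzymes of cholesterol synthesis or of its first step. For Srebf2, r was 0.96 with Rfc2 and 0.93 with Dpagt1. Srebf1 was most like Emilin1 (0.98), Pkig (0.98) and Lzts2 (0.97), Scap most like Ddx54 (0.98), Sympk (0.97) and Uhrf1 (0.97), Mbtps1 most like Dag1 (0.92), Pak6 (0.90) and Col18a1 (0.90), and Insig2 most like Cdk17 (0.91), Thap2 (0.91) and Shoc2 (0.91). No sterol enzyme was thus among the 3 nearest genes of Srebf1, Scap, Mbtps1 or Insig2.

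Genes around the members were taken in lists by function. Of 10 other SREBP regulators, which include the second protease and the ubiquitin ligases and partners of the INSIG proteins, 8 were tested and none was called in any of the 4 comparisons, with a median log2 fold change of -0.01 for mutants at E10.0. The quasi-likelihood test and DESeq2 called none of them either, and in mutants at E10.0 a single one, Fbxw7, had an unadjusted P under 0.05 by edgeR's exact test (0.21, P=0.0275, adjusted P=0.207). Mbtps2, the second protease, and Pgrmc1 lie on the X chromosome, which was left out of the test. With that chromosome kept, Mbtps2 was called in none of the 4 comparisons (0.08 for mutants at E10.0, adjusted P=0.817). Of 10 COPII coat genes none was called for mutants at E10.0 by the exact test, the quasi-likelihood test or DESeq2, and none had an unadjusted P under 0.05 by the exact test. Sec24d, a cargo-binding subunit, rose in mutants at E10.5 (0.53, adjusted P=0.00212) and in mutants between the stages (0.40, adjusted P=0.00529), and no other COPII gene was called. None of 4 other START sterol carriers was called in any of the 4 comparisons by these 3 tools, although Stard3, at -0.26 in mutants of the earlier stage, had an adjusted P of 0.0942 by the exact test and fell just short of the fold change required.

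Sterol enzymes were called lower in mutants at E10.0 in 17 of 17 tested, beside 3.28% of all genes, with a median log2 fold change of -0.59. The 3 with the smallest P were Dhcr7, the last reductase of cholesterol synthesis (-0.76, adjusted P=6.09e-15), Lss, which closes the sterol rings (-0.75, adjusted P=2.74e-13) and Fdps, which makes farnesyl pyrophosphate (-0.67, adjusted P=9.98e-11). At E10.5 it was 2 of 17, beside 3.73% of all genes called in either direction, with a median of -0.16. They were Tm7sf2 (-0.41, adjusted P=0.0810) and Acat2 (-0.32, adjusted P=0.0982) by the exact test. These 2 calls depended on the tool, and the quasi-likelihood test made none. In wild type, 14 of 17 fell from E10.0 to E10.5 (median -0.49), beside 4.74% of all genes, and 15 with replicates 1 to 3 only. The 14 were led by Lss (-0.83), Dhcr7 (-0.65) and Sc4mol (-0.70). In mutants 1 of 17 fell, beside 19.2% of all genes called in either direction, and 3 of 17 with the replicate number as a block over the mutants. The interaction of stage and genotype was called for 3 of 17, beside 0.186% of all genes, and for none with replicates 1 to 3 only. The 3 were Dhcr7, Fdft1 and Lss, named here after their values were seen. In 11 of 14 fits without 1 embryo, the count of enzymes called for the interaction was 0 or 1. Of the 3 not tested, Hmgcs1 was listed with almost no reads in any library, and Nsdhl and Ebp are X-linked. With the X chromosome kept, Nsdhl was called lower in mutants at E10.0 (-0.84, adjusted P=4.28e-10) and Ebp was not called (-0.26, adjusted P=0.175).

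Of 12 fatty acid enzymes, another group of SREBP targets, 4 were called lower in mutants at E10.0, beside 3.28% of all genes, and 8 did not pass the test (median -0.13). Those called include Scd1 (-0.70, adjusted P=5.29e-13) and Scd2 (-0.42, adjusted P=1.00e-05), which desaturate fatty acids, and Fads1 (-0.28, adjusted P=0.0141). At E10.5, 3 were called lower, Scd1 (-0.38), Scd2 (-0.30) and Me1 (-0.36), beside 3.73% of all genes called in either direction. In wild type 4 fell with stage, beside 4.74% of all genes, including Scd1 (-0.64), Elovl6 (-0.34) and Fasn (-0.66), the fatty acid synthase. In mutants 3 fell with stage, Fasn (-0.65), Scd1 (-0.32) and Acaca (-0.42), and 1 rose, beside 19.2% of all genes called in either direction. With replicates 1 to 3 only, 5 fatty acid enzymes were called lower at E10.0, 2 at E10.5 and none between the stages in mutants.

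Of 6 genes of endosomal and lysosomal sterol handling, Dab2, an adaptor for the uptake of lipoprotein receptors, rose in mutants at E10.0 (0.32, adjusted P=0.0632), a call lost by the quasi-likelihood test and with replicates 1 to 3 only. It also rose with stage in wild type (0.74, adjusted P=3.97e-08) and in mutants (0.56, adjusted P=9.31e-07). Mylip, a ubiquitin ligase acting on lipoprotein receptors, rose with stage in mutants (0.35, adjusted P=0.00389). No gene of this list was called lower in any of the 4 comparisons.

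**Figure D5:**
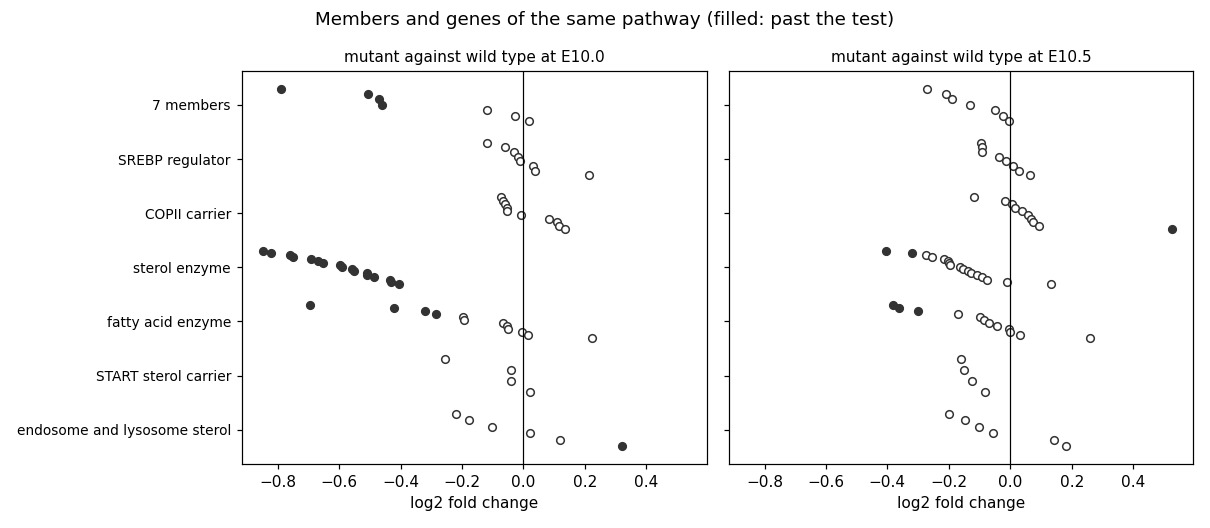
Log2 fold change of mutants against wild type (horizontal axes) at E10.0 and at E10.5 for the 7 members and the genes of the 6 lists (vertical axis), 1 point per gene, filled where past the test. At E10.0 all 17 sterol enzymes and 4 members are filled and below 0 and no SREBP regulator or COPII gene is filled, and at E10.5 no member is filled.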

How the data were processed

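Per the labels and the study's methods, RNA from both forelimb buds of each embryo was made into unstranded single-read libraries, and the authors aligned reads to mm9 with TopHat2 (2.0.13) and counted uniquely mapped reads per symbol with HTSeq. The deposited values are raw counts for 23284 symbols, 1 sample per file, and no sample was left out. Symbols were placed with GENCODE's NCBIM37 (mm9) annotation, which also gave exon lengths, and 1041 of them, on the sex chromosomes or mitochondrial, were dropped, as in the study. The test ran on the 12393 genes that reached 1 CPM in 3 or more samples, with edgeR (4.0.16) in R (4.3.3) by TMM normalization, tagwise dispersions over all 14 samples (prior of 10 degrees of freedom) and the exact test, the interaction by the quasi-likelihood test, with Benjamini-Hochberg adjustment. SEs come from replicate variances of log2(CPM + 1). Alternatives used DESeq2 (1.42.0), other scalings, filters and samples. Members and lists were chosen with earlier results of these data known. Named genes are the members, up to 3 called genes with the smallest P of each list and comparison, and the 3 genes most correlated with each member. A gene that this rule would name is not reported here. The tests were checked on simulated counts. Depth limits precision little here, since the lowest member, Insig2, had 540 or more reads per library. Srebf1 shares 109 exonic bases with Rai1, where reads cannot be assigned.

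The labels do not say that replicate numbers mark a litter or batch. Deviations from the group mean of same-numbered mutants correlated between the stages with r of 0.57, 0.61 and 0.27 for numbers 1, 4 and 5. Numbers 4 and 5 were also rich in ribosomal RNA precursor at both stages. Pairing of the mutants and this split of the libraries therefore cannot be told apart.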

Additional observations from a re-analysis of the deposited data

How the results depend on the processing

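Insig1 and Srebf2 at E10.0 and in wild type between the stages kept their direction and call under every alternative, including each fit without 1 embryo. Members called at E10.0 were 4 in all alternatives that kept every embryo, and 5 with replicates 1 to 3 only. With replicates 1 to 3 only, all genes called at E10.0 came to 2003 against 819 and those of the interaction to 6 against 23, members called at E10.5 to 1 and in wild type between the stages to 5, and sterol enzymes to 0 in mutants between the stages and in the interaction, COPII genes to 2 and fatty acid enzymes to 0 in mutants between the stages, and endosome and lysosome genes to 0 at E10.0 and 2 in wild type. Fitting the groups compared apart gave 5 members and 1989 genes against 1256 in wild type between the stages, and 2 endosome and lysosome genes there and 0 at E10.0. The quasi-likelihood test gave 0 sterol enzymes at E10.5 and 0 endosome and lysosome genes at E10.0 but 2 in wild type. DESeq2 gave 1 member, 8 sterol enzymes and 87 genes for the interaction, 1 sterol enzyme at E10.5 and 2 endosome and lysosome genes in wild type, and DESeq2's size factors alone gave those last counts, 1 and 2, as well. Without a filter the interaction was called for 39 genes, and 0 sterol enzymes were called at E10.5, against 1 without the ribosomal RNA precursor. The cause of these differences was not tested.

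The replicate number was also used as a block, which the labels do not justify. With it 1961 genes were called at E10.0 and 280 at E10.5 against 462. Members called were 5 in wild type between the stages and 1 in the interaction, Insig1 (adjusted P=0.0341 by the quasi-likelihood test). The block gave 1 COPII gene at E10.0, 2 endosome and lysosome genes in wild type, and 1, 2 and 1 sterol enzymes at E10.5, in mutants between the stages and in the interaction. Correlations of same-numbered deviations between the genotypes were 0.17 and -0.19 at E10.0, then -0.26 and -0.05 at E10.5, and those between the stages in wild type -0.08, -0.11 and -0.28. The block over the 8 mutants, chosen after seeing the data, gave 3 sterol enzymes and changed no other call among members or lists.

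Leaving out 1 embryo at a time gave 2 to 4 members and 256 to 1062 genes at E10.0, the fewest without wild-type replicate 3, 0 to 1 members and 282 to 516 genes at E10.5, 2 to 5 members and 484 to 1516 genes in wild type between the stages, the most members without mutant replicate 1 at E10.0, 0 to 2 members in mutants, and 7 to 35 genes in the interaction. Sterol enzymes ranged from 15 to 17 and from 0 to 3 at E10.0 and E10.5, from 0 to 3 in mutants between the stages and from 0 to 4 in the interaction. Fatty acid enzymes ranged from 2 to 4 at E10.0 and in wild type between the stages, START carriers from 0 to 1 and endosome and lysosome genes from 0 to 1 at E10.0, the latter from 1 to 2 in wild type, and COPII genes from 1 to 2 in mutants.

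Values near 0 changed sign. At E10.5 Insig2 became 0.092 with replicates 1 to 3 only and 0.075 with the block, and Mbtps1 became 0.0038 by DESeq2, 0.0038 with its size factors, 4.9e-05 without a filter, 0.0043 with the groups fitted apart and 0.0062 without the ribosomal RNA precursor. Insig2 in mutants between the stages became 0.00072 with the groups fitted apart. Leaving out 1 embryo gave -0.070 to 0.11 for Insig2 at E10.0, -0.13 to 0.023 for Scap, -0.090 to 0.035 for Insig2 and -0.029 to 0.025 for Mbtps1 at E10.5, -0.15 to 0.020 for Insig1, -0.096 to 0.099 for Insig2 and -0.18 to 0.026 for Stard4 in mutants between the stages, and -0.016 to 0.14 for Scap, -0.14 to 0.053 for Insig2 and -4.2e-05 to 0.054 for Mbtps1 in the interaction.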
